A study of Rattus norvegicus with 6 samples.

Results

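Major histocompatibility complex (MHC) genes and the genes of antigen presentation were followed in cultured primary neurons of the dorsal root ganglion, which the labels give as rat. Members were all rows of the deposited count table whose gene name starts with H2-, the mouse MHC prefix, plus B2m, Tap1, Tap2, Tapbp, Tapbpl, Erap1, Nlrc5, Ciita, Cd74, Rfx5 and Cd1d1. This gave 56 of 56748 rows, of which 52 had counts in at least 1 library. The cultures had received extracellular vesicles from muscle that kept its nerve (EVMu, 3 libraries) or from muscle that had been denervated acutely (EVadMu, 3 libraries). Both groups received vesicles and no untreated group is among the samples, so a rise in EVadMu and a fall in EVMu cannot be told apart. Strain, sex, age, dose and time are not given in the labels, nor whether replicates were grown as separate cultures. The p-values therefore measure replicate spread alone, and that spread may be technical. Replicates are numbered 1 to 3 and EVMu is the reference throughout.

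MHC class I molecules display peptides from inside a cell to CD8 T cells and natural killer cells. Their heavy chains (in mouse H2-K, H2-D and a large set of nonclassical relatives) pair with the light chain beta-2-microglobulin, encoded by B2m. Peptides made by the proteasome are pumped into the endoplasmic reticulum by the TAP1-TAP2 transporter, loaded with the help of tapasin (Tapbp) and trimmed by the aminopeptidase ERAP1. Class II molecules present peptides from endosomes, mainly on macrophages, dendritic cells and B cells, with the invariant chain CD74 as their escort. NLRC5 and CIITA are the master coactivators of class I and class II genes, and RFX5 is a subunit of the promoter-bound complex that both use. Neurons make class I at low levels, and in the rodent nervous system it has been tied to synapse refinement and to the response to axon injury.

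The sequences that class I pathway genes carry at their start are shown for B2m, Tap1, Tap2 and Tapbp, because these 4 members behaved differently below and all hold the letters of an interferon-stimulated response element. They are the 250 bases before the annotated start, from RefSeq (GRCr8, the rat build), in which 8 of the 56 member names had an entry in the promoter table. Capitals mark matches on either strand to the interferon-stimulated response element (GAAA, any 2 bases, GAAA), an NF-kB element (GGGA, any 1 base, TTTCC), the Y box (CTGATTGG) or CCAAT. Every Y box match overlaps a match to CCAAT.
B2m (chr3:129549080-129549329, plus strand): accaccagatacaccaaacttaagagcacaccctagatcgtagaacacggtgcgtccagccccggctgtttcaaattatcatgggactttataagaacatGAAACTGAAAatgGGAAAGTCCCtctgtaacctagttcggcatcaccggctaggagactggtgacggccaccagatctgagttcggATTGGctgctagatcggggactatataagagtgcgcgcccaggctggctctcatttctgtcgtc
Tap1 (chr20:4668544-4668793, minus strand): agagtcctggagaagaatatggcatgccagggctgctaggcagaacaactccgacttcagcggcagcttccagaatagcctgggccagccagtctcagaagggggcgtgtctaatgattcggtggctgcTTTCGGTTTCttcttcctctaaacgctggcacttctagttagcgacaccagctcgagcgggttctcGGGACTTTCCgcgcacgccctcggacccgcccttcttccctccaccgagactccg
Tap2 (chr20:4652297-4652546, minus strand): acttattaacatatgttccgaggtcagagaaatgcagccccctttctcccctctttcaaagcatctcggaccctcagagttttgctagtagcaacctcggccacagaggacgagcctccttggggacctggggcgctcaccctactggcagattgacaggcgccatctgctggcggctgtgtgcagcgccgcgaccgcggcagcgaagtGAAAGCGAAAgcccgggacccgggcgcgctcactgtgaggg
Tapbp (chr20:4967878-4968127, minus strand): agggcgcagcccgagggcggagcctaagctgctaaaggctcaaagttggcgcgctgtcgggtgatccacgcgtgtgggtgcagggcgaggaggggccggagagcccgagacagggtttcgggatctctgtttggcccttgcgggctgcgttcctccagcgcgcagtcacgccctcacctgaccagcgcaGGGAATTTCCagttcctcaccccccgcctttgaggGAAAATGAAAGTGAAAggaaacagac
The interferon element was found in 4 of the 8 members with an entry and in 3.41% of all 33469 promoters of the table. The NF-kB element was found in 3 of the 8 (B2m, Tap1 and Tapbp) and in 0.314% of all promoters. CTGATTGG was found in 1, Rfx5, and in 3.19% of all promoters. CCAAT was found in 5 of the 8 and in 34% of all promoters. These matches describe letters and do not show that a factor binds.

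Libraries held 14853115 to 17019877 gene counts, of which the members took 0.139 to 0.144% in EVMu and 0.157 to 0.161% in EVadMu. Across all 16993 genes tested by edgeR's quasi-likelihood test, 80% passed the threshold of 0.05 after adjustment. EVadMu was the higher group for 39.2% and the lower for 40.8%. Against a background that large, a call alone says little, and the size and direction of each change are given with it. Neuronal markers were present in both groups, at a summed level of 3481 to 3504 CPM (counts scaled to library size with TMM factors) in EVMu and 1782 to 1843 CPM in EVadMu. Markers of Schwann cells and satellite glia went from 3690 to 3736 CPM in EVMu to 1056 to 1074 CPM in EVadMu, of fibroblasts from 5364 to 5429 to 234 to 249 CPM, of endothelium from 269 to 280 to 84.2 to 89.0 CPM and of macrophages from 97.5 to 103 to 8.66 to 9.69 CPM. In bulk RNA, fewer cells of a type and less RNA per cell cannot be told apart. All these markers had counts, and their part in the results below was not tested.

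Of the 56 members, 30 passed the expression filter, 22 had counts too low to test (1 to 58 counts over all libraries), and H2-Oa, H2-Eb2, H2-Pa and H2-Q3 had none. Among the 30, 7 were called higher and 12 lower in EVadMu (63.3% called, against 80% of all tested genes), and 11 were not called. The 12 lower members were 40.0% of the tested ones, close to the background, and the 7 higher ones 23.3%. The groups' libraries did not overlap for 21 of the 30, where 80.7% of all tested genes did not, and 9 members changed at least 2-fold, where 41.1% of all tested genes did. The median log2 fold change was -0.28, against -0.02 over every gene tested. Members with few counts could pass the filter through their higher group alone, so these figures only describe.

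**Figure D1:**
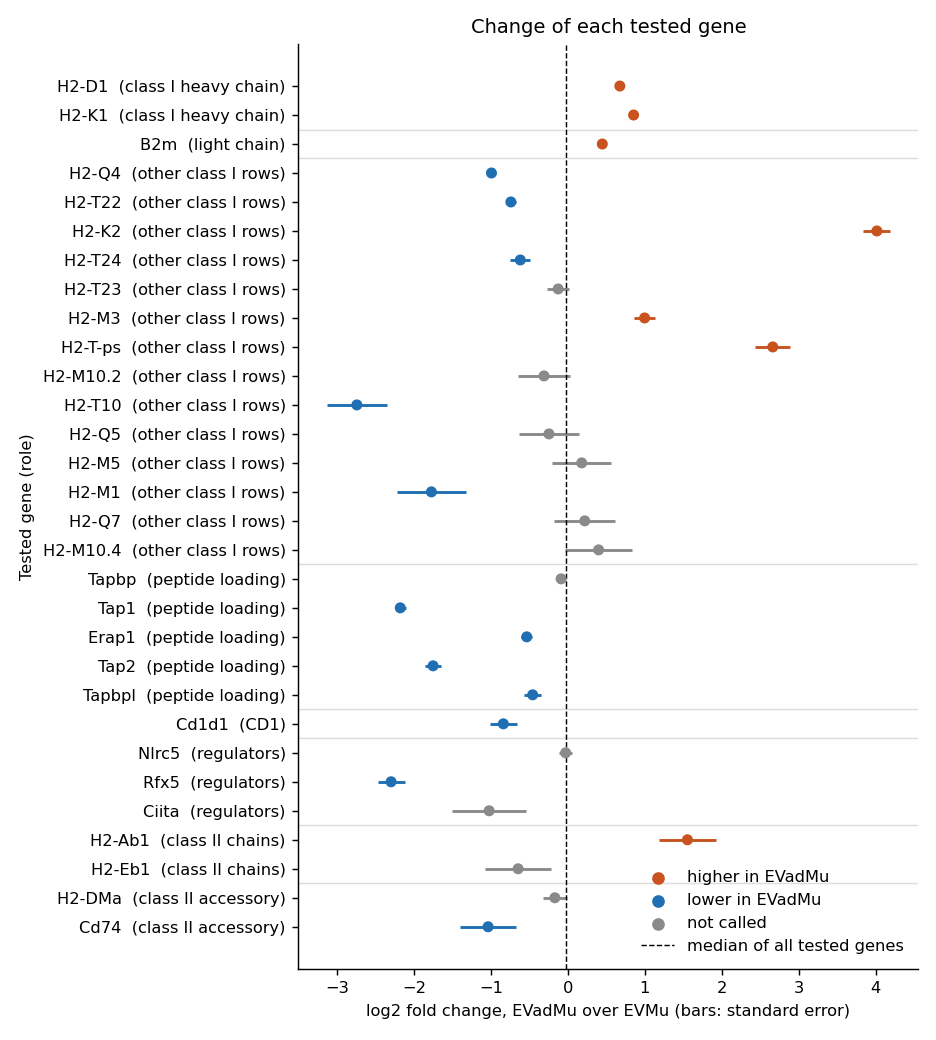
Log2 fold change of EVadMu over EVMu (horizontal axis) for the 30 tested members, grouped by role, with the standard error of the fit as bars and colour for edgeR's call. H2-D1, H2-K1 and B2m lie to the right of the dashed line at the overall median, and Tap1, Tap2 and Rfx5 lie between -1.75 and -2.30.

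The rows named for the classical class I heavy chains rose. H2-K1 was at 148, 144 and 142 CPM in EVMu replicates 1 to 3 and at 259.6, 258 and 267 CPM in EVadMu replicates 1 to 3. Every EVadMu library lay far above every EVMu library, a log2 fold change of 0.85 ± 0.037 (SE) or 1.81-fold (edgeR adjusted p = 3.26e-21, n = 3 per group). H2-D1 was at 324, 318 and 311 CPM and then at 502, 515 and 506 CPM, 1.6-fold higher (log2 fold change 0.68 ± 0.031, edgeR adjusted p = 1.96e-20). The H2-D1 groups were also wholly apart. Of all tested genes, 21.3% had a larger log2 fold change than H2-K1 and 26.6% a larger one than H2-D1.

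The light chain rose with them by a smaller factor. B2m was at 407, 391 and 402 CPM in EVMu and at 519, 557 and 562 CPM in EVadMu. No library of a group reached the other group, and the log2 fold change was 0.45 ± 0.032 (1.36-fold, edgeR adjusted p = 1.0e-14). Within each library the ratio of B2m to H2-K1 counts fell, from 2.75, 2.72 and 2.83 to 2.00, 2.16 and 2.11. Such a ratio also holds the lengths of the 2 transcripts, so only its change between groups is read here.

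**Figure D2:**
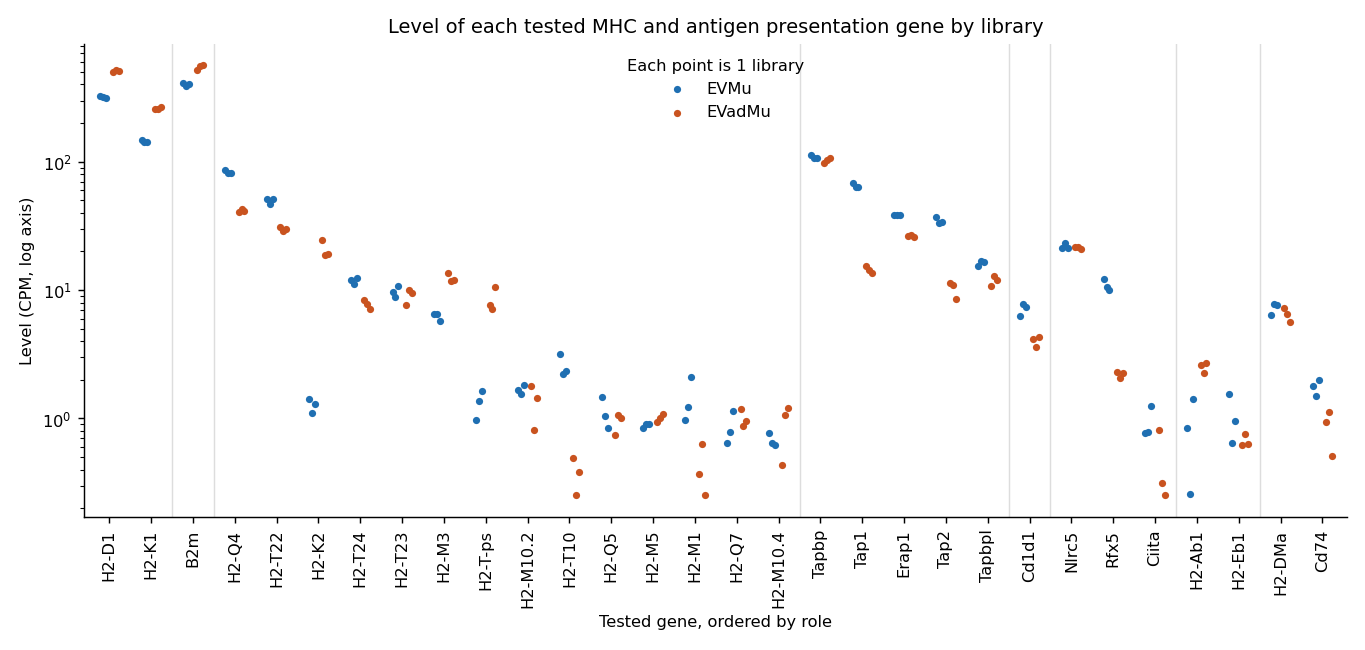
Level in CPM (log axis) of the 30 tested members in each of the 6 libraries, ordered by role, EVMu in blue and EVadMu in orange. Levels are not corrected for transcript length, so they compare libraries and not genes; the H2-K1 points sit at 142 to 148 CPM in EVMu and 258 to 267 CPM in EVadMu.

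The other class I and class I-like rows did not follow the classical chains as a group. Of 30 such rows, 14 were tested, 3 were called higher, 5 lower and 6 not. That was 21.4% higher and 35.7% lower, against 39.2% and 40.8% of all tested genes. H2-Q4, a class I gene of the Q region, had levels of 86, 81.0 and 81.8 CPM in EVMu and 40.9, 42.9 and 41.4 CPM in EVadMu. The groups were apart by 1.99-fold, lower in EVadMu (log2 fold change -0.99 ± 0.054, edgeR adjusted p = 3.09e-18). H2-T22, which in mouse is a ligand of gamma-delta T cells, was at 51.2, 46.9 and 51.6 CPM and then at 31.1, 28.6 and 30.0 CPM, 1.67-fold lower (-0.74 ± 0.066, edgeR adjusted p = 2.71e-12). Its close relative H2-T10 had 49, 34 and 41 counts in EVMu and 8, 4 and 6 in EVadMu, a log2 fold change of -2.74 ± 0.39. H2-T24 fell by 0.62 on the log2 scale and the M-region gene H2-M1, whose family is known from mouse vomeronasal neurons, by 1.77. H2-T10 and H2-M1 passed the filter through EVMu alone, their higher group, so their values only describe. H2-T23, the mouse Qa-1 gene whose product shows signal peptides to natural killer receptors, was not called (log2 fold change -0.13 ± 0.14).

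The class I-like rows that rose were H2-M3, H2-K2 and H2-T-ps. H2-M3, whose product presents N-formylated peptides in mouse, went from 6.51, 6.48 and 5.78 CPM to 13.5, 11.8 and 12.1 CPM. That was 2.00-fold higher with no overlap (log2 fold change 1.00 ± 0.14, edgeR adjusted p = 4.26e-08). H2-K2, a second row of the K region, had 22, 17 and 23 counts in EVMu and 395, 298 and 300 in EVadMu. Its 16.2-fold difference (log2 fold change 4.02 ± 0.17) was exceeded by 0.524% of all tested genes. H2-T-ps, a pseudogene by its name, had 15, 21 and 29 counts and then 124, 114 and 168, 6.33-fold more after scaling. Reads of near-identical class I rows can be split among them or lost. Whether any class I row, H2-K1, H2-D1, H2-Q4 and H2-T22 included, received reads of other class I transcripts was not tested. The values of single class I rows are therefore uncertain, those of H2-K2 and H2-T-ps among them.

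Because class I rows can share reads, their counts were also summed to 1 row and tested in its place. All 32 class I rows together held 10121, 9713 and 11135 counts in EVMu and 14594, 14459 and 14423 in EVadMu, or 637.5 ± 12.6 and 909 ± 3.60 CPM (SD, n = 3). The sum was 1.43-fold higher in EVadMu (log2 fold change 0.51 ± 0.027, edgeR adjusted p = 1.01e-17). H2-K1 and H2-D1 summed went from 462 ± 9.70 to 769 ± 6.56 CPM (log2 fold change 0.73 ± 0.029). The other 30 rows, a sum made after their values were seen, went the other way, from 175 ± 6.42 to 139.7 ± 3.35 CPM (-0.33 ± 0.040, edgeR adjusted p = 8.39e-09). The direction of the total is thus that of the H2-K1 and H2-D1 rows. They held 71.8 to 73.4% of class I counts in EVMu libraries and 84.2 to 85.0% in EVadMu libraries. H2-Q4 took 12.9 to 13.2% of class I counts in EVMu and 4.52 to 4.72% in EVadMu.

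**Figure D3:**
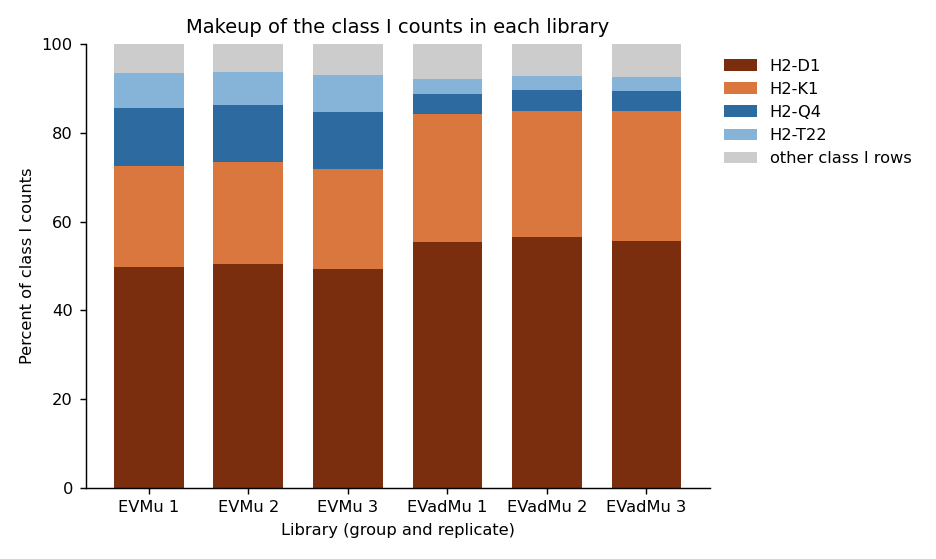
Percent of all class I counts (vertical axis, from 0) held by H2-D1, H2-K1, H2-Q4, H2-T22 and the remaining class I rows in each library. The H2-K1 and H2-D1 parts together reach 71.8 to 73.4% in the 3 EVMu libraries and 84.2 to 85.0% in the 3 EVadMu libraries, with a thinner H2-Q4 part in the latter.

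Of the 5 peptide loading members, 4 were called lower in EVadMu and none higher, where 40.8% of all tested genes were lower; Tapbp was not called. Tap1, the first chain of the peptide transporter, was at 68.2, 63.1 and 63.8 CPM in EVMu and at 15.4, 14.2 and 13.5 CPM in EVadMu. Every EVMu library lay far above every EVadMu library, and the log2 fold change was -2.18 ± 0.072 (4.52-fold lower, edgeR adjusted p = 1.55e-24). Tap2, the partner chain, was at 37.4, 33.4 and 33.7 CPM and then at 11.4, 11 and 8.60 CPM. It was 3.36-fold lower, again with no overlap (log2 fold change -1.75 ± 0.099, edgeR adjusted p = 9.84e-18). Of all tested genes, 9.1% had a lower log2 fold change than Tap1 and 12.7% a lower one than Tap2.

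The remaining loading genes showed smaller differences. Erap1 went from 38.6, 38.5 and 38.2 CPM to 26.5, 27.0 and 26.1 CPM, a narrow spread within each group and a 1.45-fold fall (log2 fold change -0.53 ± 0.070, edgeR adjusted p = 1.95e-08). Tapbpl, whose product TAPBPR edits the bound peptide, went from 15.5, 16.7 and 16.6 CPM to 10.9, 12.8 and 11.9 CPM, a 1.37-fold fall (edgeR adjusted p = 3.07e-04). Tapbp itself was at 112, 107 and 107 CPM and then at 97.9, 103 and 107 CPM. The highest EVadMu library of Tapbp came close to the lowest EVMu library, and it was not called (log2 fold change -0.09 ± 0.046, edgeR adjusted p = 0.0795). It was called lower under 4 of 14 alternatives, which were no scaling factors (-0.20, edgeR adjusted p = 1.55e-04), upper-quartile factors, no filter and the fit without EVadMu replicate 3, and adjusted p in the others stayed above the threshold.

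Ratios of raw counts within a library do not depend on any scaling between libraries. They show unequal change of 2 genes, not the direction of either, and the pairs were picked after the values were seen. For H2-K1 over Tap1 the ratio was 2.17, 2.28 and 2.22 in EVMu and 16.9, 18.1 and 19.7 in EVadMu, a log2 difference of 3.03 between the group means. For H2-D1 over Tap1 the log2 difference was 2.85, for B2m over Tap1 2.63 and for H2-K1 over Tap2 2.62. Even the 2 transporter chains shifted against each other, since the Tap1 to Tap2 ratio went from 1.82, 1.89 and 1.90 to 1.35, 1.29 and 1.57. The 10 ratios computed did not overlap between the groups, but the levels of 80.7% of single tested genes did not either. A 2-sided exact permutation test with 3 libraries per group cannot go below p = 0.1, and each ratio gave that p. With pairs picked from seen values, neither the lack of overlap nor that p adds support.

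**Figure D4:**
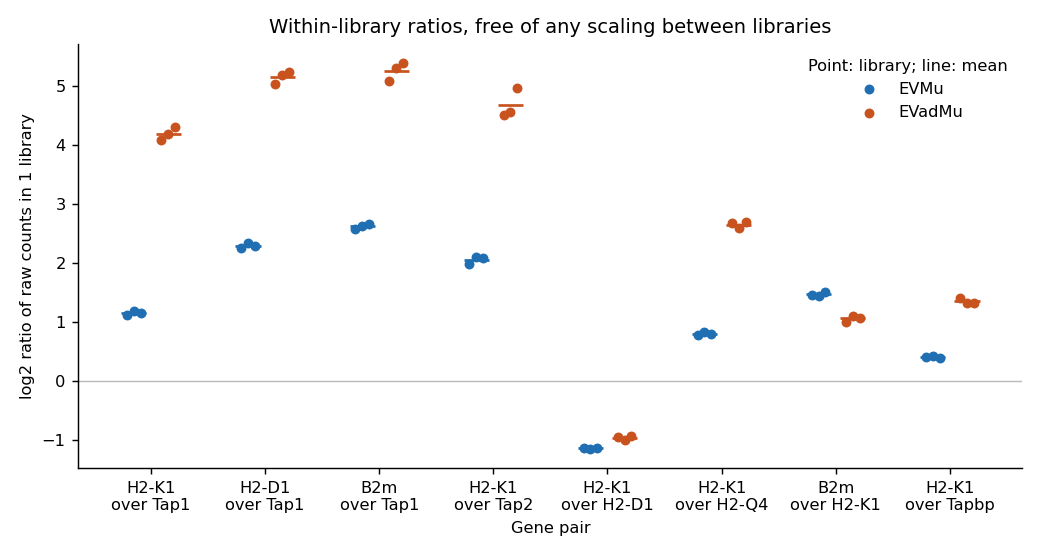
Log2 ratio of raw counts of 2 genes in the same library (vertical axis) for 8 gene pairs, EVMu in blue and EVadMu in orange, with a line at each group mean. H2-K1 over Tap1 moves from a mean of 1.15 to 4.19, while H2-K1 over H2-D1 moves from -1.14 to -0.96.

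Among the regulators, Rfx5 fell and Nlrc5 was not called. Rfx5 was at 12.1, 10.6 and 10.1 CPM in EVMu and at 2.29, 2.08 and 2.28 CPM in EVadMu. The groups were far apart, 4.91-fold lower in EVadMu (log2 fold change -2.30 ± 0.17, edgeR adjusted p = 3.9e-14). Nlrc5 was at 21.3, 23.1 and 21.3 CPM and then at 21.8, 21.6 and 20.9 CPM, with overlapping groups and a log2 fold change of -0.03 ± 0.086 (edgeR adjusted p = 0.772). No difference in Nlrc5 RNA was detectable in the libraries in which H2-K1 rose and Tap1 fell. Whether NLRC5 had a part in either change was not tested. Ciita had 12, 12 and 22 counts in EVMu and 13, 5 and 4 in EVadMu and missed the threshold (log2 fold change -1.02 ± 0.48, edgeR adjusted p = 0.0505). Ciita was called lower under 4 of 13 alternatives, among them the fit without EVadMu replicate 1 (log2 fold change -1.69, edgeR adjusted p = 0.012). Without EVadMu replicate 3 it was at -0.73 and not called (edgeR adjusted p = 0.209).

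Class II rows had few counts, and their depth limits what can be said. The 7 class II chain rows together held 47, 20 and 50 counts in EVMu and 56, 49 and 55 in EVadMu, and the sum was not called (log2 fold change 0.48 ± 0.26, edgeR adjusted p = 0.0927). H2-Ab1, the beta chain of the mouse I-A molecule, had 13, 4 and 25 counts in EVMu and 42, 36 and 43 in EVadMu. It was called higher at 2.94-fold (log2 fold change 1.55 ± 0.37, edgeR adjusted p = 2.52e-04). H2-Ab1 passed the filter through EVadMu, its higher group, as EVMu replicate 2 had only 4 counts, so its call only describes. The call held with each library left out. The log2 fold change fell to 1.14 without EVMu replicate 2, which had 4 counts (edgeR adjusted p = 0.0046). It rose to 2.18 without EVMu replicate 3, the EVMu library with most counts. The partner chain of H2-Ab1, H2-Aa, had 10, 1 and 8 counts and then 2, 0 and 1, too few to test. The ratio of H2-Aa levels was 6.23 in favour of EVMu, with a 95% counting interval of 1.84 to 32.9 that covers counting error only. H2-Eb1 was not called (24, 10 and 17 counts in EVMu, 10, 12 and 10 in EVadMu).

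The class II accessory genes did not rise with H2-Ab1. Cd74, normally abundant in antigen-presenting cells, had 28, 23 and 35 counts in EVMu and 15, 18 and 8 in EVadMu, a log2 fold change of -1.04 ± 0.36 (edgeR adjusted p = 0.0103). That call was lost without EVMu replicate 3 (edgeR adjusted p = 0.0505) or without EVadMu replicate 3 (edgeR adjusted p = 0.0669). Cd74 passed the filter through EVMu alone, its higher group, so its call only describes. H2-DMa, a chain of the peptide-exchange molecule DM, had 99, 121 and 134 counts and then 117, 104 and 89 and was not called (log2 fold change -0.17). The other chain, H2-DMb1, had 12, 7 and 4 counts in EVMu and 0, 1 and 2 in EVadMu, a level 7.55 times as high in EVMu (95% counting interval 2.28 to 39.3, counting error only). In the same libraries 11 of 12 tested macrophage markers were lower and none higher, where 40.8% of all tested genes were lower. Summed dendritic cell markers were at 27.0 to 28.5 CPM in EVMu and 15.7 to 19.9 CPM in EVadMu. Most of that sum was Zbtb46, which was lower (24.2 and then 12.2 CPM, log2 fold change -0.98). Flt3 was not called (0.43). Itgax, too low to test, had 4, 3 and 5 counts in EVMu and 6, 13 and 5 in EVadMu. Xcr1 and Cd209a had 3 and 5 counts over all libraries. Summed B cell markers were at 0.773 to 1.08 CPM in EVMu and 1.38 to 1.55 CPM in EVadMu, and T and natural killer cell markers at 0.130 to 0.340 and 0.558 to 0.822 CPM. None of the 5 T and natural killer cell markers had enough counts to test. Cd3g and Ncr1 had 0 counts in EVMu and 16 and 14 in EVadMu. Trac went the other way, with 8 counts in EVMu and 1 in EVadMu, and Nkg7 and Cd3d had 4 and 1 over all libraries. Cd1d1, which presents lipids to natural killer T cells, had levels of 6.25, 7.84 and 7.42 CPM in EVMu and 4.15, 3.59 and 4.3 CPM in EVadMu. It was 1.79-fold lower without overlap (edgeR adjusted p = 5.46e-05).

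The remaining low rows had at most 58 counts over all libraries, reached by H2-Ke6, a hydroxysteroid dehydrogenase gene named for its place in the MHC (20 counts in EVMu and 38 in EVadMu). Among untested rows whose levels did not overlap between the groups, H2-M10.5-ps1 had 1, 2 and 2 counts in EVMu and 22, 15 and 4 in EVadMu, and H2-Bl had 1, 0 and 1 and then 6, 8 and 3. H2-M2 had 2, 2 and 3 counts in EVMu and 0, 0 and 1 in EVadMu. H2-Q1 had no counts in EVMu and 3, 5 and 2 in EVadMu, 3.39-fold higher with a floor of 3 counts over the EVMu group. H2-M9 had 3, 5 and 10 counts in EVMu and none in EVadMu, 5.91-fold lower on the same floor for the EVadMu group. Both folds leave out the counting error of the group that had counts. The tested rows H2-M5, H2-Q5, H2-Q7, H2-M10.2 and H2-M10.4 had 76 to 147 counts each over the 6 libraries and were not called, at log2 fold changes of -0.31 to 0.40.

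Other genes of the pathway were taken from 7 lists with 70 names, of which 58 were tested. Of these, 17 were higher, 28 lower and 13 not called (39.2% of all tested genes were higher and 40.8% lower), and the median log2 fold change was -0.26 (-0.02 over every gene tested). Among 10 peptide supply genes 7 were lower and 3 higher. The immunoproteasome subunit genes Psmb9 and Psmb8 fell, Psmb9 from 12.8 ± 2.07 to 0.439 ± 0.064 CPM (SD, n = 3) and Psmb8 from 23.0 ± 1.69 to 3.22 ± 0.45 CPM, log2 fold changes of -4.84 ± 0.24 and -2.84 ± 0.13. Tpp2 and Thop1, cytosolic peptidases that trim or destroy peptides, were higher by 1.03 and 0.81 (log2). The third immunoproteasome subunit gene Psmb10 and the proteasome activator genes Psme1 and Psme2, named after their values were seen, were lower too (-1.26, -0.94 and -0.73). The groups overlapped for Psme2, at 16.4, 33.2 and 37.3 CPM in EVMu and 18.9, 20.1 and 13.6 CPM in EVadMu.

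Of 6 folding genes of the endoplasmic reticulum that serve class I, 4 were higher and 1 lower, with a median of 0.43, where 39.2% of all tested genes were higher. The translocon gene Sec61a1 rose from 217 ± 3.24 to 407 ± 16.6 CPM and the disulfide isomerase gene Pdia3, which joins the loading complex as ERp57, from 646 ± 11.6 to 969 ± 32.2 CPM. The other risers, named after their values were seen, were the lectin chaperones Calr and Canx (0.47 and 0.40), and the glucosyltransferase gene Uggt1 fell by 0.33 on the log2 scale. These genes also serve protein folding in general.

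Of 17 genes for MHC transcription and interferon signalling, 9 were lower, 4 higher and 4 not called, with a median of -0.22 (all tested genes 40.8% lower and 39.2% higher). Stat2, a transducer of type I interferon signals, fell from 87.9 ± 1.38 to 21.7 ± 1.5 CPM and the interferon-gamma receptor gene Ifngr1 from 50.4 ± 1.40 to 29.7 ± 1.66 CPM, log2 fold changes of -2.02 ± 0.061 and -0.76 ± 0.066. The NF-kB subunit gene Rela rose by 1.00 and Nfya, a subunit of the factor that binds CCAAT, by 0.72. The other higher genes, named after their values were seen, were Nfyc and Rfxap, a partner of RFX5 (0.91 and 0.46). Of the other lower genes, also named later, the NF-kB subunit gene Nfkb1 was at -0.46 and the interferon regulatory factor genes Irf1, Irf8, Irf9 and Irf2 were at -0.98, -1.65, -0.82 and -0.22. The kinase genes Jak1 and Jak2 were at -0.31 and -0.34. Psmb8, Psmb9 and Tap1 fell in the libraries in which H2-K1, H2-D1 and B2m rose. These 6 genes were picked after their values were seen. As background, all 6 are known to be induced by interferon-gamma. Whether interferon signalling had a part in any of these changes was not tested.

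**Figure D5:**
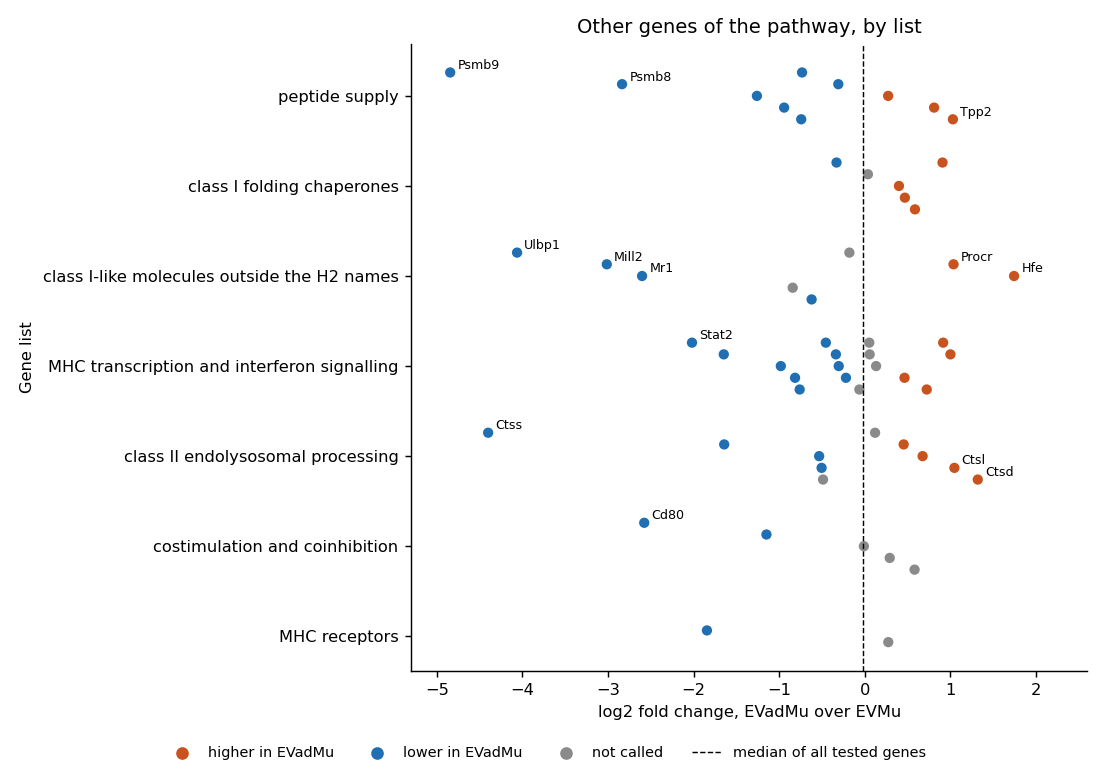
Log2 fold change of EVadMu over EVMu (horizontal axis) for the 58 tested genes of 7 pathway lists, one row of points per list, coloured by edgeR's call, with a dashed line at the overall median. Psmb9 at -4.84 and Ctss at -4.40 lie farthest to the left, and Hfe at 1.74 farthest to the right.

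Class I-like molecules outside the H2 names were mixed, with 4 of 8 tested lower and 2 higher (40.8% and 39.2% of all tested genes). Ulbp1, which encodes a stress-induced ligand of the natural killer receptor NKG2D, fell from 11.3 ± 0.66 to 0.668 ± 0.20 CPM, and Mill2 from 15.6 ± 2.96 to 1.92 ± 0.15 CPM. Mr1, which presents vitamin B metabolites, and the neonatal Fc receptor gene Fcgrt, both named after their values were seen, were at -2.60 and -0.62 on the log2 scale. The iron regulator gene Hfe rose from 5.44 ± 0.45 to 18.2 ± 0.048 CPM and the protein C receptor gene Procr from 10.2 ± 1.44 to 20.9 ± 0.67 CPM.

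Among 10 genes of endolysosomal processing for class II, 4 were higher, 4 lower and 2 not called, shares close to the 39.2% and 40.8% of all tested genes. The cathepsin S gene Ctss, the main invariant chain protease of antigen-presenting cells, fell from 10.8 ± 0.22 to 0.502 ± 0.17 CPM, and the asparagine endopeptidase gene Lgmn fell by 0.53 on the log2 scale. The general lysosomal protease genes Ctsd and Ctsl rose by 1.32 and 1.05 on that scale; Ctsb and Marchf8, named after their values were seen, rose by 0.45 and 0.67. Ctsh and Sppl2a, also named later, were at -1.64 and -0.51.

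Of 5 tested costimulation genes none was higher, and Cd80 and Icosl, ligands that activate T cells, were lower, 2 of 5 against 40.8% of all tested genes (log2 fold changes of -2.58 ± 0.22 and -1.15 ± 0.23). The checkpoint ligand gene Cd274 was not called, at 7.14 ± 0.91 CPM in EVMu and 7.06 ± 0.90 CPM in EVadMu. Of 8 genes for receptors of MHC molecules 2 could be tested. Pirb, a class I receptor known in mouse neurons for limiting plasticity, was lower, with a log2 fold change of -1.84 ± 0.38 at 110 counts in EVMu and 30 in EVadMu.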

How the data were processed

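RNA of 6 libraries was poly(A)-selected, per the labels' protocols, which name no strand-marking step, so overlapping antisense reads cannot be told apart. Per the submitters' processing notes, the tools included HISAT2, featureCounts, SAMtools and CASAVA 1.8, with mm39, a mouse build, although the labels say rat. The table's identifiers are mouse, and how rat reads would fall on mouse MHC rows was not tested. None of the 45 H2 names is a symbol in the rat gene table (GRCr8), which lists 67 RT1 genes, the rat MHC. The sources used here do not say how reads with several hits were handled.

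The deposited values are raw counts per gene, not normalised by the authors. Genes passing edgeR's filter (minimum count 10, minimum total 15) were compared in R 4.3.3 with edgeR 4.0.16 (TMM, quasi-likelihood F-test, Benjamini-Hochberg over 16993 genes, threshold 0.05). The procedure was also run on simulated data in which far fewer genes changed than here, so that run does not cover this setting. A gene could pass the filter through its higher group alone. Calls of listed genes and markers with few counts in 1 group therefore only describe. Levels are TMM-normalised CPM. The ± after a level is the SD and after a log2 fold change the SE. Within-group correlations of log CPM (prior count 2) were 0.989 to 0.992. Replicate pairs differed by 2.15 to 3.33 times counting variance, so none was counted as 1 sample.

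The members and lists were chosen with earlier results of these data known. All tested members are named, and of each list up to 2 called genes per direction with the smallest p; others are marked where named, and 1 listed gene is not reported here. Alternatives were other scaling, filters, a replicate block, DESeq2 1.42.0, limma-voom (limma 3.58.1), other class I sums and leaving out each library. Lengths were not available for the build, so levels of different genes are not compared.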

Additional observations from a re-analysis of the deposited data

How the results depend on the processing

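Under 14 alternatives, each changing 1 choice except DESeq2, which also brings its own size factors, members called higher numbered 7 to 10 and lower 11 to 16, and the summed class I rows stayed higher. Leaving out each library gave 7 to 8 members higher, 11 to 13 lower and 0.49 to 0.53 for the sum (log2). With the replicate block, which the titles' numbers allow, the values were 7, 12 and 0.51. Same-numbered libraries did not deviate together (correlations -0.0037 to -0.0096). That shows no shared deviation but cannot exclude a pairing that leaves none. The block changed no call. Without scaling factors the median of all tested genes was -0.13 and the sum 0.40. The sum reversed, to -0.33, when H2-K1 and H2-D1 were left out of it, a choice made after seeing the data. Of 413 member values under alternatives, 401 kept direction and call, 2 lost the call (Cd74), 8 gained it (Ciita and Tapbp, 4 each) and 2 changed sign, both Nlrc5, which was at -0.058 to 0.0012 when a library was left out and above 0 without EVMu replicate 2 or EVadMu replicate 3. The cause was not tested. Rows with few counts are limited by depth. Without a filter 26 of 52 members were called, where 41.3% of all 35783 genes were. Over the alternatives, 23 to 52 members were tested and 41.3 to 83.7% of all tested genes were called.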
